A study of Homo sapiens with 6 samples.

Results

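Transforming growth factor beta (TGF-beta) ligands, receptors and targets were followed through doxycycline-induced suppression of SOX2 or TP63 in KYSE70, a human esophageal squamous carcinoma cell line. The 9 members were the table rows whose gene names were TGFB1, TGFB2, INHBA, LTBP1, THBS1, TGFBR1, TGFBR2, SMAD3 and TGFBI, and all 9 were found among 48644 genes. At the filter of a mean of at least 1 RPKM (a read density scaled for gene length and library size, which allows levels of different genes to be compared), 6 of the 9 were tested, among 10536 genes in all. TGFB2, INHBA and TGFBI lay below it.

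The 6 libraries of poly(A) RNA came from KYSE70 cells carrying a doxycycline-inducible (pLKO-Tet-On) short hairpin against either TP63 or SOX2, a pair of transcription factors that keep squamous cells in their basal state. The groups were shTP63 cells at day 4 of doxycycline at 50 ng/ml (2 libraries), untreated shTP63 cells at day 0 (1 library), shSOX2 cells at day 4 of the same dose (2 libraries) and untreated shSOX2 cells at day 0 (1 library). All cells were grown with serum and carried a hairpin vector, and no doxycycline-treated cells with a control hairpin were used here, so an effect of doxycycline itself cannot be told apart from that of a hairpin. The number in each sample's title was read as a replicate, although it could name a hairpin. If it names a hairpin, the 2 induced libraries of a line carry different hairpins and need not be alike. Libraries numbered 1 then have no day 0 library of their own hairpin. Own day 0 below means the day 0 library of the same line. For induced cells replicate 2 is given before replicate 1, and both day 0 libraries carry the number 2. Nothing states that the replicates were separate cultures, so the p-values reflect only how far these libraries scatter, and that scatter may be technical. The scatter was measured only between the induced libraries of a line, since each day 0 group holds 1 library. The same scatter was assumed at day 0.

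TGF-beta ligands are secreted as latent complexes that are held in the matrix by latent TGF-beta binding proteins and are released by integrins, proteases or thrombospondin. The freed ligand joins the type II receptor to the type I receptor, which phosphorylates SMAD2 and SMAD3. With SMAD4 these enter the nucleus and control targets that arrest the cell cycle, build matrix or feed back on the pathway. In squamous epithelium the pathway is known for restraining proliferation, and for promoting invasion in some carcinomas.

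The hairpin targets and marker genes describe the libraries behind every value. TP63 stood at 3.81 and 3.32 RPKM in induced shTP63 cells, against 14.9 RPKM in uninduced shTP63 cells. SOX2 stood at 49.1 and 24.4 RPKM in induced shSOX2 cells, against 75.3 RPKM in uninduced shSOX2 cells. Neither passed limma against its own day 0 (adjusted p = 0.131 for TP63 and 0.469 for SOX2), while TP63 was lower in induced shTP63 than in induced shSOX2 cells by that test (log2 difference −1.73 ± 0.26, adjusted p = 0.0467). All 12 squamous markers were above 0 in each library, and 11 or 12 of them exceeded 1 RPKM. They summed to 2620 and 1236 RPKM in induced shTP63 cells, against 2985 RPKM at day 0, and to 827.5 and 1224 RPKM in induced shSOX2 cells, against 1941 RPKM at day 0. Summed leukocyte markers (7 genes) reached at most 0.435 RPKM and summed endothelial markers (4 genes) at most 0.829 RPKM. The 5 glandular epithelial markers summed to 190.4 and 211.6 RPKM in induced shTP63 cells, against 267.8 RPKM at day 0, and to 95.7 and 109.7 RPKM in induced shSOX2 cells, against 310.5 RPKM at day 0. Both sums were thus lower in all 4 induced libraries than at their own day 0, but single squamous markers went both ways. KRT13, CDH1, EPCAM, PERP and JUP lay above their own day 0 in all 4 induced libraries. KRT6A (log2 differences −3.15 in shTP63 and −2.73 in shSOX2) and SOX2 lay below in all 4. The sides of KRT5, KRT14, DSG3, DSP and TP63 varied between libraries or lines. Only 2 of the 5 glandular markers exceeded 1 RPKM in each library. The 10 fibroblast markers summed to 93.9 and 61.0 RPKM in induced shTP63 cells, against 6.77 RPKM at day 0, and to 32.8 and 162.9 RPKM in induced shSOX2 cells, against 11.1 RPKM at day 0. COL3A1 alone made 49.8 to 95.2% of that sum, and 7 of the 10 (PDGFRB, PDGFRA, COL1A2, LUM, DCN, FAP and POSTN) did not exceed 0.164 RPKM anywhere, with FAP at 0 in all 6. The uninduced shTP63 library had 16167 genes above 0, against 21530 to 23509 in the other libraries.

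The pathway was expressed unevenly. THBS1 had the highest level of the 9 in every library, with 43.2 to 210.7 RPKM, and its range did not overlap that of TGFB1, the next gene in 5 of the 6 libraries, at 16.2 to 34.2 RPKM. In replicate 2 of induced shTP63 cells TGFBR2 took the second place. From TGFB1 down to TGFBR1 each range overlapped that of the next gene, but TGFBR2 lay wholly above SMAD3 and TGFBR1, and LTBP1 wholly above TGFBR1. TGFBR2 spanned 4.21 to 26.3 RPKM, LTBP1 3.93 to 9.61 RPKM, SMAD3 2.39 to 4.14 RPKM and TGFBR1 1.81 to 2.69 RPKM. By mean level, THBS1 stood at the 98.8th percentile of the tested genes, TGFB1 at the 89.4th and TGFBR1 at the 29.4th. TGFBI, INHBA and TGFB2 stayed below 0.3 RPKM in each library, and their ranges also overlapped.

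**Figure D1:**
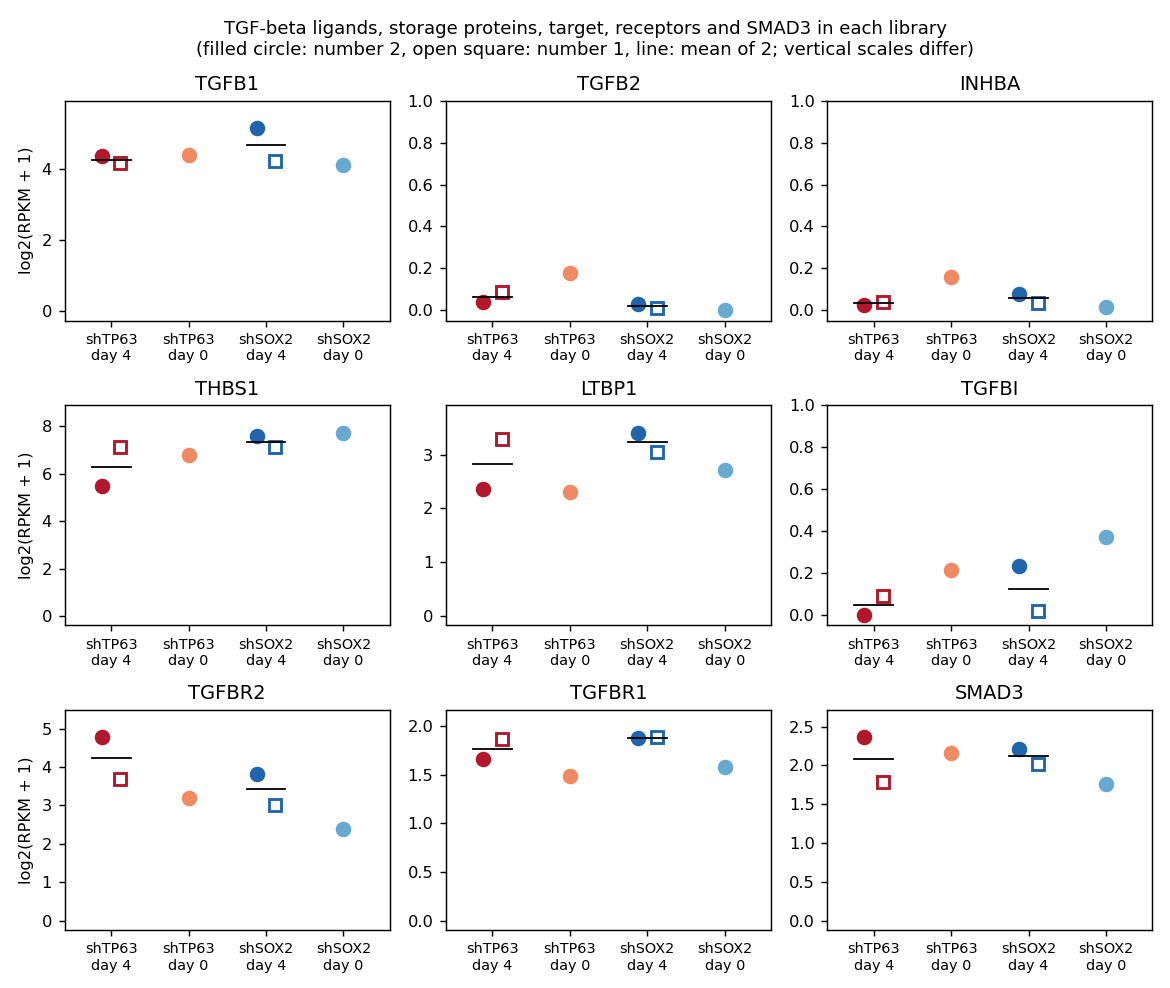
Level of each of the 9 members in each library as deposited, log2(RPKM + 1), for induced shTP63, uninduced shTP63, induced shSOX2 and uninduced shSOX2 cells. Filled circles are libraries numbered 2, open squares those numbered 1, lines are means of 2 libraries, and vertical scales differ. Both induced TGFBR2 points lie above the uninduced point of their own line, and TGFB2, INHBA and TGFBI lie near 0 throughout.

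No member passed the test in either induction. Between day 4 and day 0 limma, a linear model that shares its estimate of spread across genes, called 0 of the 6 tested members in shTP63 cells, where it called 0.019% of all tested genes (2 genes), and 0 of 6 in shSOX2 cells, where it called 0% of all tested genes. At an unadjusted p under 0.05 it called 0 of 6 members in either line, against 14.6% of all tested genes in shTP63 and 10.4% in shSOX2. By a rule of size, under which every induced library must lie at least 2-fold on the log2(RPKM + 1) scale to one side of day 0, 0 of 6 members qualified in either line, against 5.87% of all tested genes in shTP63 and 3.46% in shSOX2. In bulk RNA, fewer cells expressing a gene and less RNA per cell cannot be told apart.

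Of the ligands among the members, TGFB1 was present at like levels in 5 of the 6 libraries. TGFB1, which encodes TGF-beta 1, had 19.5 and 17.0 RPKM in induced shTP63 cells, against 20.1 RPKM at day 0. Its level was 34.2 and 17.5 RPKM in induced shSOX2 cells, against 16.2 RPKM at day 0. Replicate 2 of the induced shSOX2 cells held the single high value, and the other induced replicate lay close to its day 0. The log2 differences were −0.14 ± 0.45 in shTP63 (SE, limma adjusted p = 0.916) and 0.57 ± 0.45 in shSOX2 (adjusted p = 0.671). The groups did not overlap in either line, which also held for 76.5% of all tested genes in shTP63 and 73.4% in shSOX2. By the GENCODE 29 annotation the TGFB1 locus overlaps the opposite-strand genes CCDC97, HNRNPUL1 and TMEM91 of the table, and with no strand-specific step stated their reads cannot be told apart where exons overlap.

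TGFB2 and INHBA were at or near the bottom of the scale. TGFB2, which encodes TGF-beta 2, had 0.0268 and 0.0634 RPKM in induced shTP63 cells, against 0.130 RPKM at day 0. In shSOX2 cells it had 0.0218 and 0.00616 RPKM at day 4, and was listed at 0 at day 0. INHBA, the activin A subunit, had 0.0174 and 0.0289 RPKM in induced shTP63 cells, against 0.118 RPKM at day 0, and 0.0543 and 0.0254 RPKM in induced shSOX2 cells, against 0.00995 RPKM at day 0. At such levels neither gene was tested and no fold change is given. The smallest value above 0 in the uninduced shTP63 library was 0.143 on the log2(RPKM + 1) scale. In the other libraries it was 0.0147 or less. The TGFB2 (0.176) and INHBA (0.160) values of that uninduced library lay near its smallest, so a fall cannot be read from them. Depth is unknown, so how few reads these values represent cannot be stated.

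The promoters of TGFB1 and TGFB2 are shown because both encode TGF-beta ligands and TGFB1 was abundant while TGFB2 was at or near 0. INHBA was about as scarce as TGFB2, and below it in the 3 shTP63 libraries. Both are the 250 bases before the RefSeq transcription start in GRCh38.p14, written 5′ to 3′ on the gene's strand, with capitals marking a match to a searched motif. TGFB1 is at chr19:41353923-41354172 on the minus strand, and TGFB2 at chr1:218345086-218345335 on the plus strand.
TGFB1: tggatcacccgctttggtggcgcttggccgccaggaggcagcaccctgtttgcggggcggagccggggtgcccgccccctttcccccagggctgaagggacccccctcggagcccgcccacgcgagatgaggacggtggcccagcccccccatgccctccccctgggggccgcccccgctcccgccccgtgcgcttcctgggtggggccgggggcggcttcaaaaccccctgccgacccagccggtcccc
TGFB2: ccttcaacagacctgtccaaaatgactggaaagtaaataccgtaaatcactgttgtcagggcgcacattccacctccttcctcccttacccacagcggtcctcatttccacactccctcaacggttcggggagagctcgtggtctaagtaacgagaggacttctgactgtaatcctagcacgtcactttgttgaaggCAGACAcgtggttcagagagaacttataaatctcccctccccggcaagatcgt
The TGFB1 window has a G and C content of 76.8% and 21 CpG dinucleotides, and the TGFB2 window 50.4% and 11, while the median of 35116 promoter windows is 58% and 11. The search covered both strands for AP-1 (TGANTCA, in 6.57% of all windows), SMAD (CAGACA, in 13.6%), SOX (ATTGTT, in 8.98%) and the p53-family motif (in 5.57%), and the letters of these motifs did not overlap in either window. The TGFB2 window held CAGACA from 53 to 48 bases before the start, and the TGFB1 window held no match. A match describes letters and not binding.

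The member that stores the ligand, LTBP1, lay above day 0 in each induced library, and the member that can release it, THBS1, lay on both sides of day 0. LTBP1, which tethers latent TGF-beta to the matrix, had 4.15 and 8.77 RPKM in induced shTP63 cells, against 3.93 RPKM at day 0. The induced shSOX2 cells had 9.61 and 7.31 RPKM, against 5.53 RPKM at day 0. All 4 induced libraries lay above their own day 0, although replicate 2 of shTP63 did so by only 0.06 on the log2 scale. The log2 differences were 0.53 ± 0.44 in shTP63 (SE, limma adjusted p = 0.623) and 0.52 ± 0.44 in shSOX2 (adjusted p = 0.695).

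THBS1, which encodes thrombospondin 1, a matrix protein able to activate latent TGF-beta, had 43.2 and 140.3 RPKM in induced shTP63 cells, against 110.2 RPKM at day 0. The shSOX2 line had 190.3 and 138.5 RPKM at day 4, against 210.7 RPKM at day 0. The induced shTP63 replicates lay on opposite sides of day 0, and both induced shSOX2 replicates lay below theirs. The log2 differences were −0.49 ± 0.63 in shTP63 (SE, limma adjusted p = 0.765) and −0.37 ± 0.63 in shSOX2 (adjusted p = 0.856). The THBS1 locus overlaps the opposite-strand gene FSIP1, and the LTBP1 locus the opposite-strand gene AL133244.1, with the same limit as for TGFB1. The ratio of THBS1 to TGFB1, in RPKM, was 2.21 and 8.26 in induced shTP63 cells, against 5.48 at day 0, and 5.56 and 7.89 in induced shSOX2 cells, against 13.0 at day 0.

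The type II receptor had the largest differences among the tested members, of about the same size in both lines. TGFBR2, which binds the ligand first and activates the type I receptor, had 26.3 and 11.8 RPKM in induced shTP63 cells, against 8.07 RPKM at day 0. In shSOX2 cells TGFBR2 had 13.1 and 7.09 RPKM at day 4, against 4.21 RPKM at day 0. Each induced library lay above its own day 0, and replicate 2 was the higher induced library in both lines. The induced shSOX2 replicate 1 lay below the uninduced shTP63 library, so induced and uninduced libraries overlapped when the lines were put together.

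For TGFBR2 the log2 difference from day 0 was 1.05 ± 0.53 in shTP63 cells (SE, limma, 95% interval −0.20 to 2.29, adjusted p = 0.41). It was 1.04 ± 0.53 in shSOX2 cells (95% interval −0.21 to 2.28, limma adjusted p = 0.536). The shTP63 response minus the shSOX2 response was 0.01 ± 0.75, with an interval of −1.75 to 1.77, which leaves room for a large difference in either direction. The summed fibroblast markers were higher in induced cells as well, and the squamous and glandular sums lower, as given above. Single squamous markers lay on both sides of day 0. The part of all these markers in the TGFBR2 values was not tested.

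The upstream-most of the TGFBR2 promoters listed by RefSeq is shown because this gene has the largest differences among the tested members. It lies at chr3:30606106-30606355 on the plus strand of GRCh38.p14, 5′ to 3′, and any motif match would be in capitals.
TGFBR2: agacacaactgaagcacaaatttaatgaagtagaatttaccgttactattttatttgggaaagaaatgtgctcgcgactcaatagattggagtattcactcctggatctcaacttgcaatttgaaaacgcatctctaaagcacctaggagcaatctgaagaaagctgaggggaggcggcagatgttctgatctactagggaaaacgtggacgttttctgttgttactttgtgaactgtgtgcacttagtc
The G and C content of this window is 40.8%, with 7 CpG dinucleotides, below the lower quartile of 46.4% for G and C content over all windows. It held none of the 4 searched motifs, nor did the window of the other listed start, and that says nothing of any factor. The window of that other start has a G and C content of 58.4% and 12 CpG dinucleotides, near the medians of 58% and 11 over all windows.

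The type I receptor differed less from day 0 than the type II receptor did in each line. TGFBR1, the kinase that phosphorylates the SMADs, had 2.16 and 2.65 RPKM in induced shTP63 cells, against 1.81 RPKM at day 0. The shSOX2 line had 2.68 and 2.69 RPKM at day 4, against 1.98 RPKM at day 0. All 4 induced libraries lay above both uninduced libraries, which held for 1 of the 6 tested members and for 11.5% of all tested genes, while 0 members lay below in that way, against 14.2%. The log2 differences were 0.27 ± 0.29 in shTP63 (SE, limma adjusted p = 0.711) and 0.31 ± 0.29 in shSOX2 (adjusted p = 0.728). The ratio of TGFBR2 to TGFBR1 was 12.2 and 4.47 in induced shTP63 cells, against 4.46 at day 0, and 4.90 and 2.63 in induced shSOX2 cells, against 2.13 at day 0. The induced shTP63 replicate 1 thus had nearly the day 0 ratio.

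SMAD3, the receptor-activated transcription factor of the pathway, had 4.14 and 2.47 RPKM in induced shTP63 cells, against 3.47 RPKM at day 0. Induced shSOX2 cells had 3.65 and 3.06 RPKM, against 2.39 RPKM at day 0. The induced shTP63 replicates lay on either side of day 0, and both induced shSOX2 replicates lay above theirs. The log2 differences were −0.08 ± 0.35 in shTP63 (SE, limma adjusted p = 0.936) and 0.36 ± 0.35 in shSOX2 (adjusted p = 0.733).

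The target among the members, TGFBI, a secreted matrix protein named for its induction by TGF-beta, was nearly silent. It was listed at 0 and had 0.0634 RPKM in induced shTP63 cells, against 0.159 RPKM at day 0. In the shSOX2 line it had 0.175 and 0.0122 RPKM at day 4, against 0.291 RPKM at day 0. Every induced value except that of shSOX2 replicate 2 was under both day 0 values, and at these levels the gene was not tested. The uninduced shTP63 value, 0.213 on the log2(RPKM + 1) scale, lay near the smallest value above 0 in that library, 0.143. A fall in shTP63 cells therefore cannot be read from it.

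The members were also counted by the side of day 0 on which both induced libraries lay. In shTP63 cells 3 of the 6 (TGFBR1, LTBP1 and TGFBR2) had both induced libraries above day 0, against 37.9% of all tested genes, and 1 (TGFB1) had both below, against 38.5%. In shSOX2 cells 5 of 6 had both above, against 33.3% of all tested genes, and THBS1 had both below, against 40.2%. TGFBR1, LTBP1 and TGFBR2 were above day 0 in all 4 induced libraries, 3 of 6 members against 19.4% of all tested genes, and 0 members were below in all 4, against 23%. The median log2 difference of the members was 0.09 in shTP63, where that of all tested genes was 0.00, and 0.44 in shSOX2, where it was −0.05. With 1 uninduced library per line, each of these counts rests on that library.

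An average of both lines' differences was added after the values were seen. For TGFBR2 it was 1.04 ± 0.38 on the log2 scale (SE, limma, 95% interval 0.16 to 1.92), with an unadjusted p of 0.0262 and an adjusted p of 0.186. TGFBR2 was the 1 member of 6 at an unadjusted p under 0.05, a level that 20.6% of all tested genes reached, and 0 of 6 passed after adjustment, against 0.0569% of all tested genes. The averages were 0.52 ± 0.31 for LTBP1 (adjusted p = 0.378 by limma) and 0.29 ± 0.21 for TGFBR1 (adjusted p = 0.461). For THBS1 the average was −0.43 ± 0.45 (limma adjusted p = 0.618).

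**Figure D2:**
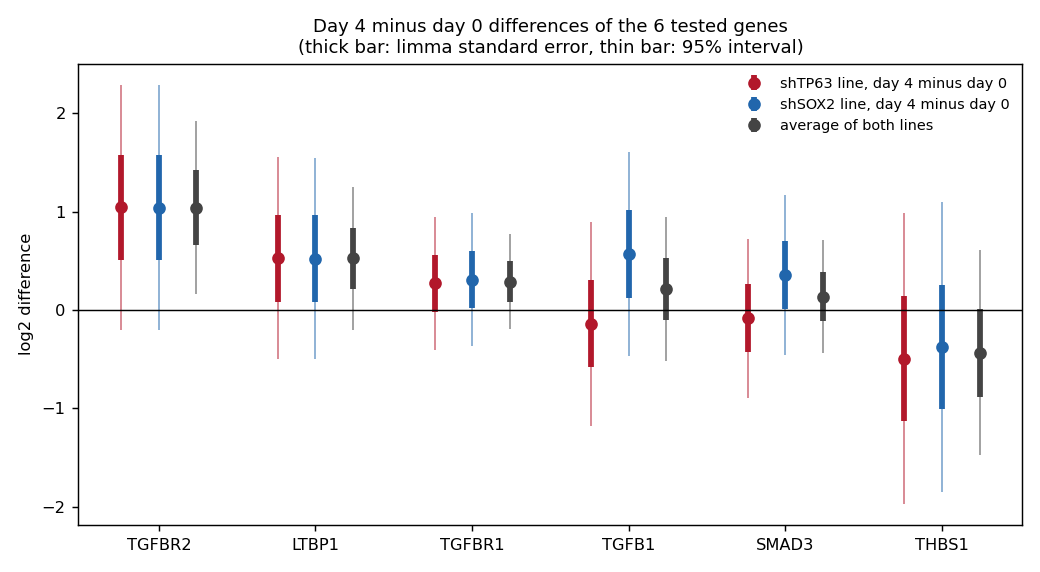
Log2 difference, day 4 minus day 0, of the 6 tested members in shTP63 cells, in shSOX2 cells and averaged over both lines, with points for the limma estimates, thick bars for standard errors and thin bars for 95% intervals. Every interval of a single line crosses 0, while the averaged interval of TGFBR2, 0.16 to 1.92, lies above 0.

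The induced lines were then set against each other. This comparison leaves day 0 out, so it cannot tell an effect of suppressing TP63 or SOX2 from differences the lines already had. Limma called 0 of 6 members, while it called 0.759% of all tested genes (80 genes), and 0 of 6 reached an unadjusted p under 0.05, against 23% of all tested genes. By the rule of size 0 of 6 were apart, against 2.47%. THBS1 had the largest difference among the members, −1.05 ± 0.52 on the log2 scale (adjusted p = 0.265), with 43.2 and 140.3 RPKM in induced shTP63 against 190.3 and 138.5 RPKM in induced shSOX2 cells. The low value was that of replicate 2 of shTP63 alone. Without replicate 1 of shTP63 the difference was −1.89 and passed (limma adjusted p = 0.0223), and without replicate 2 it was −0.21. The uninduced lines already differed the same way in THBS1, with 110.2 RPKM in shTP63 and 210.7 RPKM in shSOX2 cells. The shTP63 response of THBS1 minus its shSOX2 response was −0.12 ± 0.90. Between induced lines TGFBR2 differed by 0.81 ± 0.44 (adjusted p = 0.299 by limma), and its groups overlapped. TGFBR1 was the 1 member with induced shTP63 below induced shSOX2 in both libraries, against 26.6% of all tested genes, and 0 members had it above, against 30.5%. For TGFBR1 that came with a log2 difference of only −0.12 ± 0.24 (limma adjusted p = 0.783). The day 4 minus day 0 responses of the lines were not separated either, with 0 of 6 members called and 0% of all tested genes, and at an unadjusted p under 0.05 with 0 of 6 members and 4.55% of all tested genes.

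In either line 4 of the 6 tested members had a replicate gap above the median, which splits all tested genes evenly. The gap between replicates of induced shTP63 cells was 1.68 on the log2 scale for THBS1, larger than that of 99.4% of tested genes, and 1.09 for TGFBR2, against a median gap of 0.28. Between replicates of induced shSOX2 cells it was 0.93 for TGFB1 and 0.80 for TGFBR2, against a median of 0.30. TGFBR1 lay at the other end, with gaps of 0.21 in induced shTP63 and 0.0047 in induced shSOX2 cells. Between the uninduced lines, where no suppression was induced, TGFBR2 already differed by 0.80 and THBS1 by 0.93, against a median of 0.29. The TGFBR2 estimates of 1.05 and 1.04 therefore stood beside gaps of 0.80 to 1.09 between libraries read as replicates or between the uninduced lines.

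The rest of the pathway was read from a list of 84 other genes, of which 51 were tested and 33 lay below the filter. INHA, MSTN, ITGB6, ACVR1C and CDKN2B were listed at 0 in all 6 libraries. Limma called 0 of the 51 in either induction, with 9 at an unadjusted p under 0.05 in shTP63, against 14.6% of all tested genes, and 7 in shSOX2, against 10.4%. The median log2 difference of the 51 was −0.04 in shTP63 and 0.17 in shSOX2. By the rule of size 2 were higher and 4 lower in induced shTP63 cells, where 3.05% of all tested genes were higher and 2.82% lower. In induced shSOX2 cells 5 were higher and 0 lower, where 2.48% of all tested genes were higher and 0.987% lower. In shTP63 the 2 were CDKN1A and JUNB and the 4 included PDGFB and GDF15, and in shSOX2 the 5 were INHBE, ACVR1B, LTBP4, MMP14 and CYR61, of which GDF15, MMP14 and CYR61 are named here after their values were seen.

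The genes of ligand latency, storage and activation had the highest median in both lines, 0.73 in shTP63 and 0.85 in shSOX2 over 8 tested genes. Both induced shTP63 libraries lay above day 0 for 7 of the 8, against 37.9% of all tested genes, and both induced shSOX2 libraries for 5 of the 8, against 33.3%. LTBP4, a relative of LTBP1, had 9.67 and 9.33 RPKM in induced shTP63 cells, against 5.47 RPKM at day 0, and 14.8 and 17.4 RPKM in induced shSOX2 cells, against 6.85 RPKM at day 0. Its log2 difference was 0.70 ± 0.33 in shTP63 (SE, limma adjusted p = 0.372) and 1.12 ± 0.33 in shSOX2 (adjusted p = 0.394). In shSOX2 cells the integrin subunit ITGAV differed by 1.06 ± 0.33 (limma adjusted p = 0.414) and the convertase FURIN, which cleaves the TGF-beta precursor, by 1.00 ± 0.36 (adjusted p = 0.435). FBN1, the microfibril protein that holds latent complexes, had 2.58 and 6.84 RPKM in induced shTP63 cells, against 0.836 RPKM at day 0. Its log2 difference there was 1.53 ± 0.49 (limma adjusted p = 0.23), and without replicate 2 of induced shTP63 cells it was 2.09 and passed (adjusted p = 0.0482), while without replicate 1 it was 0.96 (adjusted p = 0.329).

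Among the other ligands and receptors the lines had medians of unlike sign. The 4 tested ligands had a median log2 difference of −0.39 in shTP63 and 0.69 in shSOX2. The 2 tested genes of the receptor and co-receptor list, ACVR1B and TGFBRAP1, had medians of −0.15 and 0.71 in the same lines. ACVR1B alone had 0.01 in shTP63 and 1.42 in shSOX2, and TGFBRAP1 alone −0.31 and −0.0015. TGFB3, the ligand nearest to TGFB1 and TGFB2, had 1.71 and 2.13 RPKM in induced shTP63 cells, against 0.549 RPKM at day 0, and 2.45 and 1.28 RPKM in induced shSOX2 cells, against 0.52 RPKM at day 0. All 4 induced libraries exceeded their own day 0, with log2 differences of 0.91 ± 0.34 in shTP63 (SE, limma adjusted p = 0.277) and 0.88 ± 0.34 in shSOX2 (adjusted p = 0.444). ACVR1B, the type I activin receptor, differed by 1.42 ± 0.38 in shSOX2 cells (limma adjusted p = 0.368). INHBE, an inhibin beta subunit, had 13.9 and 3.00 RPKM in induced shSOX2 cells, against 0.394 RPKM at day 0, a log2 difference of 2.47 ± 0.68 (limma adjusted p = 0.368) that was 1.52 or 3.42 with 1 induced library left out. GDF11, another ligand of the family, lay below day 0 in all 4 induced libraries, with log2 differences of −0.72 ± 0.33 in shTP63 (limma adjusted p = 0.355) and −0.60 ± 0.33 in shSOX2 (adjusted p = 0.553).

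**Figure D3:**
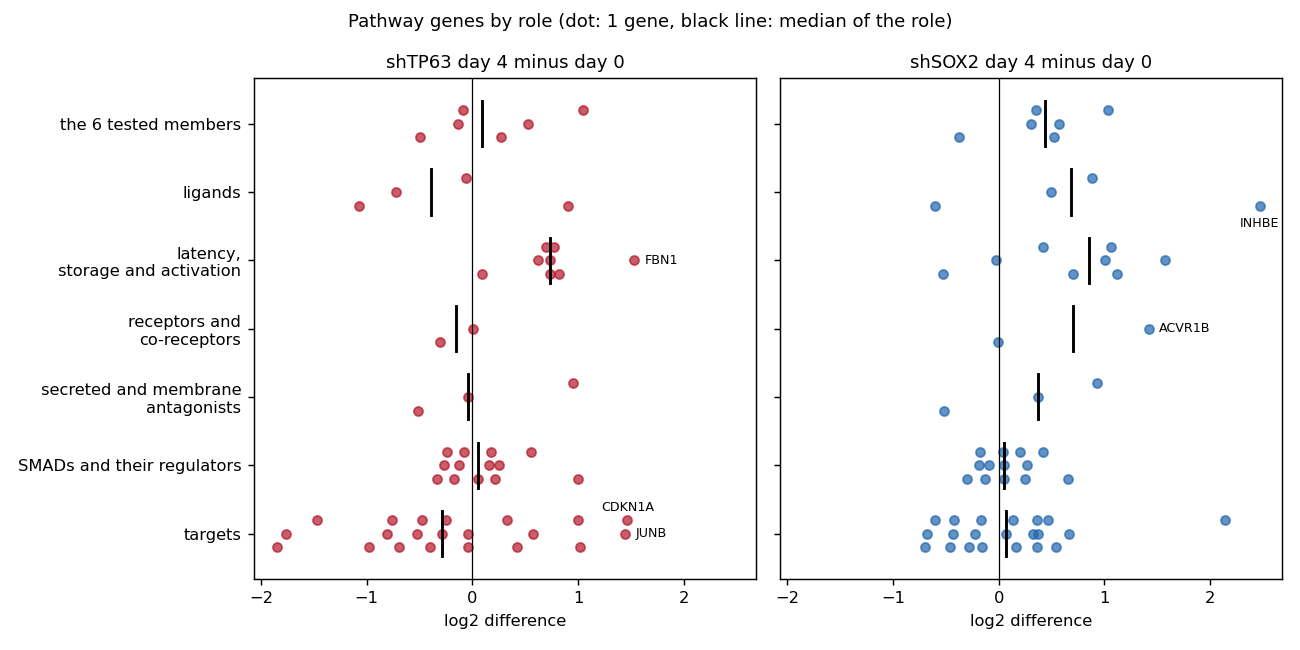
Log2 difference, day 4 minus day 0, of the 6 tested members and of the other tested pathway genes by role, in shTP63 cells on the left and shSOX2 cells on the right, with 1 dot per gene and a black line at the median of each role. The latency, storage and activation genes have medians of 0.73 in shTP63 and 0.85 in shSOX2, and the targets −0.28 and 0.07.

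Targets lay on both sides of day 0. Over 21 tested targets the median log2 difference was −0.28 in shTP63 and 0.07 in shSOX2. CDKN1A, which encodes the cell cycle inhibitor p21 and is a target of p53 as well as of SMADs, had 52.1 and 50.0 RPKM in induced shTP63 cells, against 17.8 RPKM at day 0, and 8.33 and 12.4 RPKM in induced shSOX2 cells, against 8.95 RPKM at day 0. Its log2 difference was 1.47 ± 0.37 in shTP63 (SE, limma adjusted p = 0.167) and 0.17 ± 0.37 in shSOX2 (adjusted p = 0.893). It was the 1 pathway gene of 51 that passed between induced lines, higher in induced shTP63 than in induced shSOX2 cells by 2.22 ± 0.30 (limma adjusted p = 0.0392), and without replicate 2 or replicate 1 of induced shSOX2 it missed the threshold (adjusted p = 0.235 and 0.161). Of all tested genes 0.759% passed between induced lines. At an unadjusted limma p under 0.05 there were 15 of the 51 pathway genes, against 23% of all tested genes. The uninduced lines already differed in CDKN1A, with 17.8 RPKM in shTP63 and 8.95 RPKM in shSOX2.

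Other targets and regulators were named by their differences within a line. In shTP63 cells the transcription factor JUNB had a log2 difference of 1.44 ± 0.37 (limma adjusted p = 0.169) and the inhibitory SMAD6 one of 1.00 ± 0.35 (adjusted p = 0.261). PDGFB, a platelet-derived growth factor, had one of −1.47 ± 0.68 (limma adjusted p = 0.365), and MYC one of −0.98 ± 0.47 (adjusted p = 0.376), which was −1.46 or −0.50 with 1 of its induced libraries left out. COL1A1, a collagen that is also on the fibroblast list and so part of its sum, had one of 1.02 ± 0.30 (limma adjusted p = 0.207). It had 5.39 and 4.38 RPKM in induced shTP63 cells. In induced shSOX2 replicate 1, where the fibroblast sum was highest (162.9 RPKM), COL1A1 had 2.71 RPKM. The part of the other fibroblast markers in COL1A1 was not tested. CDH2, or N-cadherin, had 2.83 and 5.14 RPKM in induced shSOX2 cells, against 6.87 RPKM at day 0. Its log2 difference was −0.70 ± 0.38 (limma adjusted p = 0.546), and −1.04 or −0.36 with 1 induced library left out. NEDD9, an adhesion scaffold, and FSTL3, an activin antagonist, lay below day 0 there too, with log2 differences of −0.46 ± 0.31 and −0.51 ± 0.35 (limma adjusted p = 0.624 and 0.625), and for NEDD9 −0.67 or −0.24 with 1 induced library left out.

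Counted over both lines, 12 of the 51 pathway genes lay above day 0 in all 4 induced libraries, against the 19.4% of all tested genes given above, and 6 lay below in all 4, against 23%. The 12 were TGFB3, ZFYVE9, FBN1, COL1A1, SMAD6, ITGAV, FURIN, LTBP4, TGIF1, JUNB, BAMBI and ID1. The 6 included TRIM33, SMAD2, FSTL3, GDF11 and MYC.

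Each tested member was last compared with every other tested gene across the 6 libraries. By Pearson r, TGFBR2 was most like C5orf42 and LRRN2 (both 0.996), and 148 genes exceeded 0.9 with it. TGFBR1 was most like TAP1 and SREBF2 (both 0.992), LTBP1 like SPINT1 (0.996) and C12orf32 (0.992), and THBS1 like MICB (0.994) and BUD31 (0.983). TGFB1 was most like SDK2 (0.988) and PTPRN2 (0.983), and SMAD3 like SHROOM3 (0.986) and SRF (0.976). The 6 points of each r share the lines, the induction and the normalization, and 25 to 171 genes passed 0.9 with each member, so a high r is common here and describes likeness of pattern only.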

How the data were processed

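Poly(A) RNA was fragmented, copied with random primers and sequenced, per the labels' protocols. The deposited log2 values were read from the values as log2(RPKM + 1), quantile-normalized between libraries. Base 2 was settled from gene lengths: the linear values times exonic kilobases (GENCODE 29) sum to 362021 to 373982 per library, below the 1000000 that such a sum can reach, whereas a natural base gives 2409610 to 3004230. Per the submitters' processing notes the genome build was hg19, while aligner, counter and annotation were not given in the sources used here. Depth is unknown, so no counting intervals are given.

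Genes averaging at least 1 RPKM over the libraries were tested with limma 3.58.1 in R 4.3.3, as 4 group means with a trend of variance on level (all 6 libraries, 2 residual and 5.53 prior degrees of freedom), on the log2 values as deposited. P-values are two-sided and Benjamini-Hochberg adjusted over 10536 genes, with a call under 0.05. Errors after ± are limma standard errors. Differences on the log2(RPKM + 1) scale understate changes of low genes. With 2 libraries against 2, a permutation p cannot go below 0.333. The fit was tested on simulated data. Members and lists were chosen with earlier results of these data known. Pathway genes named were those called, otherwise the 5 per direction and line with the smallest p on 1 side of day 0 in both induced libraries. TGFB3, and all members and targets of the hairpins, were described beside them, TGFB3 chosen after its values were seen, and CDKN1A and LTBP4 are given in both lines. Some genes that the rule names are not reported here. For likeness, the 2 genes of highest r were named. Promoters came from RefSeq (GRCh38.p14), a build other than that of the files, and were matched by symbol for all 9 members. Protein sequences were not used here. Alternatives were other filters, pseudocounts, scaling, controls, a replicate block and left-out libraries.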

Additional observations from a re-analysis of the deposited data

Results flagged for a closer look

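TGFB1 lay below day 0 in both induced shTP63 libraries and above day 0 in both induced shSOX2 libraries, with responses of −0.14 in shTP63 and 0.57 in shSOX2 on the log2 scale. The difference between the responses was −0.71 ± 0.63 (SE), and limma did not separate it from 0 (adjusted p = 0.995).

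CDH2, which encodes N-cadherin, lay above day 0 in both induced shTP63 libraries and below it in both induced shSOX2 libraries, with responses of 0.58 in shTP63 and −0.70 in shSOX2. The difference was 1.28 ± 0.53 (SE), which did not pass in limma (adjusted p = 0.995).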

How the results depend on the processing

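TGFBR2 kept its direction in every alternative run: 0.50 to 1.85 over 14 in shTP63 (limma adjusted p 0.105 to 1), 0.24 to 1.51 over 14 in shSOX2 (0.413 to 1) and 0.75 to 1.51 over 11 for the average (0.0608 to 0.781), and no alternative called it. LTBP1 and TGFBR1 also kept their direction in either line and in the average. Leaving out an induced library could not reverse any of these genes there, since every induced library lay above its own day 0. One library per line at day 0 and unknown depth limit every value, and causes of the changes below were not tested except where stated. Of 678 values of single genes under alternatives, 635 kept direction and side of the threshold, 28 reversed, 10 lost a call and 5 gained one.

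The genes called by limma (2 in shTP63, 0 in shSOX2, 0 for the response difference, 80 between induced lines, 6 for the average, in this order) were 37, 1090, 1193, 25 and 1232 without the filter, where 48644 genes were tested and 37, 1085, 1193, 25 and 1200 of the calls lay below it. At 5 RPKM 1 gene was called in shTP63, 44 between induced lines and 1 for the average. With log2(RPKM + 0.1) the counts were 5, 46 and 90 in that order, and with log2(RPKM + 5) 1 in shSOX2 and 30 between induced lines. Fitted on the line alone, shTP63 gave 0 and shSOX2 11. With both day 0 libraries as control shTP63 gave 291 and shSOX2 2, and with the other line's day 0, 49 and 4, where 1 member was apart by size in shTP63. Against both day 0 libraries CDKN1A (1.93, adjusted p = 0.0298), JUNB (1.78, 0.028) and TP63 (−1.61, 0.0248) passed in shTP63 by limma. CDKN1A between induced lines missed the threshold without the filter (limma adjusted p = 0.488).

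The replicate block gave 0 in shTP63, 18 between induced lines and 0 for the average, and CDKN1A between induced lines then missed it (adjusted p = 0.055, limma). The numbers were not taken to pair the samples. The differences of replicate 2 minus replicate 1 correlated at −0.074 between the lines, with 2 numbers only. That value compares the lines with each other, so it cannot decide whether a number pairs day 0 with day 4 within a line.

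Other settings reversed these values. TGFBR2 and LTBP1 in the response difference were −0.059 with log2(RPKM + 0.1) for TGFBR2, −0.018 with log2(RPKM + 5) for LTBP1, and −0.046 for TGFBR2 and −0.052 for LTBP1 with median-ratio scaling. In shTP63 TGFB1 was 0.0088 against both day 0 libraries, 0.16 against the other line's and 0.14 with the replicate block, and SMAD3 0.12, 0.32 and 0.11 in the same order. In shSOX2 THBS1 was 0.090 against both day 0 libraries and 0.55 against the other line's, and SMAD3 −0.043 against the other line's.

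Leaving out each induced library in turn gave 0 to 80 genes called in shTP63, 0 to 11 in shSOX2, 0 to 5 for the response difference, 0 to 324 between induced lines and 0 to 263 for the average. Members apart by size were 0 to 2 in either line and 0 to 1 between induced lines, where members called were 0 to 1 (THBS1, −1.89 to −0.21). TP63 between induced lines was −1.81 to −1.65 (limma adjusted p 0.0431 to 0.235). The values with a reversal were, in shTP63, SMAD3 at −0.37 to 0.20 and THBS1 at −1.33 to 0.34. Between induced lines they were LTBP1 at −0.87 to 0.0575, SMAD3 at −0.33 to 0.24 and TGFB1 at −0.88 to 0.049. For the average they were SMAD3 at −0.0064 to 0.28 and TGFB1 at −0.016 to 0.45. For the response difference they were LTBP1 at −0.46 to 0.47, TGFBR1 at −0.14 to 0.071, TGFBR2 at −0.54 to 0.55 and THBS1 at −0.96 to 0.72.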
